A study of Mus musculus with 4 samples.

Results

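The Siglecs are cell surface lectins that bind sialic acid on the glycans of neighbouring cells or of the same cell. The members described here were 7 mouse Siglecs (Cd33, Siglec1, Siglece, Siglecf, Siglecg, Siglech and Cd22) and the phosphatases Ptpn6 and Ptpn11, which encode SHP-1 and SHP-2. They were chosen by name, with the FPKM differences between CD274-null and WT LICs already known, and all 9 were found among the 27179 genes of the deposited values. The values were measured by RNA-sequencing in leukemia-initiating cells (LICs) of a murine acute myeloid leukemia (AML) model, in 4 libraries, of which 2 carry the label WT and 2 the label CD274-null. Per the labels, the WT libraries came from wild type mice and the CD274-null libraries from CD274 knockout mice, both on strain C57BL/6, at an age of 6 weeks, with bone marrow as the tissue. CD274 is the immune checkpoint ligand PD-L1. According to the study's methods, the leukemia of both groups was driven by MLL-AF9, a fusion oncogene delivered by retrovirus into Lin- fetal liver cells that were then transplanted into lethally irradiated mice of the same strain. The labels describe flow-sorted cells, and LICs are Mac-1+/c-Kit+ in the study, so host cells that carry both markers could be part of either group. The methods on RNA-sequencing, however, speak of RNA from tissue and mention no sort. The transplantation round of these LICs is not given in the sources used here. The labels do not say whether the 2 libraries of a group came from separate mice, and the p-values below measure the spread between these libraries, which may be technical.

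Most Siglecs carry inhibitory motifs (ITIMs) in their cytoplasmic tail. When a Src family kinase phosphorylates these motifs, they recruit SHP-1 and SHP-2, which remove phosphate from nearby activating receptors. Some Siglecs instead pair with the activating adaptor DAP12. Mouse CD33 lacks the canonical ITIM of human CD33 and has a charged membrane residue that allows pairing with DAP12. CD33 marks myeloid progenitors and the blasts of most human AML, in which it is a target of antibody therapy. The mouse genes Siglece, Siglecf and Siglecg belong with Cd33 to the rapidly evolving CD33-related group, while Siglec1 and Cd22 are conserved between mammals.

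Values are FPKM, fragments corrected for the length of the gene and for the mapped reads of the library, so levels can be compared between genes per length. The values of 1 gene stand in ratios of whole reads, from which the reads behind them were recovered in lowest terms. These reads summed to between 8452662 and 11048767 per library. Fold changes are differences of log2(FPKM + 0.5), CD274-null minus WT, a scale that understates the change of low genes. They were fitted with limma over the 13230 genes whose FPKM averaged 0.5 or more, which included 6 of the 9 members. A gene with an unadjusted limma p under 0.01 and a fold change above 1.5 is called a candidate, the thresholds of the study. In this comparison 3.63% of the tested genes were candidates, 2.39% with higher and 1.24% with lower values in CD274-null, and 10 genes had an adjusted p under 0.05. Because the members were proposed with results of this contrast known, their fold changes are a description and carry no test.

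The labels and the sort were examined first. Cd274 had an FPKM of 2.80 and 0.945 in WT against 1.43 and 2.29 in CD274-null. It did not separate the genotypes. Since 1 value covers the whole gene and the deleted exons are not given in the labels, this checks the labels neither way, and each direction below rests on them. Itgam, which encodes a chain of Mac-1, ran from 100 to 174 and Kit from 6.59 to 19.5, with the lowest Kit in WT replicate 1. WT replicate 1 also held the largest summed FPKM of 11 neutrophil markers, 43488 against 8796 to 31421 in the other libraries. All 11 of these markers were tested, 0 were candidates and 1 had an unadjusted limma p under 0.05. The 8 T cell markers summed to at most 4.84 in any library, and the 6 erythroid markers with a value to 54.9 in WT replicate 2 and to at most 4.56 elsewhere.

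Of the Siglecs, 4 lie in 1 cluster on chromosome 7 of GRCm38, in the order Siglecf (chr7:43351341-43359475), Siglecg (chr7:43408192-43418349), Cd33 (chr7:43527399-43537424) and Siglece (chr7:43648882-43672044), over 321 kb. These are also the 4 of the 7 Siglecs that passed the filter on low values. Their promoters are shown because Cd33 and Siglecg, genes of 1 cluster, differed between the groups in opposite directions. Each sequence holds 250 bases before and 50 after a transcription start in RefSeq's annotation of GRCm38.p6, written in the gene's direction. The starts used for Cd33 and Siglece lie inside the annotated spans of these genes. Capitals mark matches, on either strand, to GAGGAA (a core of PU.1 and other ETS factors) or TGTGGT (a core of RUNX factors).
Cd33, chr7:43533122-43533421, minus strand: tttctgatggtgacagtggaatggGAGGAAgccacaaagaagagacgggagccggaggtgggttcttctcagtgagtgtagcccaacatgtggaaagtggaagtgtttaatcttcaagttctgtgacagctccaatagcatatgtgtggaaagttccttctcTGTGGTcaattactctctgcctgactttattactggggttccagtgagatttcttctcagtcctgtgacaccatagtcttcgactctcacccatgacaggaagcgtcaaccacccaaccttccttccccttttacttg
Siglecf, chr7:43351091-43351390, plus strand: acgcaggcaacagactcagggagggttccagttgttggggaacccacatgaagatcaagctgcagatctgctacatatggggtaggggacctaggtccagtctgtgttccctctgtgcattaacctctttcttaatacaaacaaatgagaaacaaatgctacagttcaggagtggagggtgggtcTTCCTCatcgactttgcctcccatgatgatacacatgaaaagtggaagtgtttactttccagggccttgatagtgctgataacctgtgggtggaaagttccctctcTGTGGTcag
Siglecg, chr7:43407989-43408288, plus strand: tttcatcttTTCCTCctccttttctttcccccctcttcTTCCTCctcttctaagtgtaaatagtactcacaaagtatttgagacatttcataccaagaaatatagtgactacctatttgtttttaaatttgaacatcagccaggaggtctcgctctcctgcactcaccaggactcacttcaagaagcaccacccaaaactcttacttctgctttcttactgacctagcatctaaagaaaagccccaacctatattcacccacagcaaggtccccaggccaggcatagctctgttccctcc
Siglece, chr7:43660112-43660411, minus strand: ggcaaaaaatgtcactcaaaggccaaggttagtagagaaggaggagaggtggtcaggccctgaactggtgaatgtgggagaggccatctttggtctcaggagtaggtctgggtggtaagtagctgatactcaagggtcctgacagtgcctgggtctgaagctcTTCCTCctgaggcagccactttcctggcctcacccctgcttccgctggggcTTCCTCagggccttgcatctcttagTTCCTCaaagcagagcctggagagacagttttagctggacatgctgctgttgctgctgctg

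GAGGAA occurs in 28.3% of 27025 promoters of this length and TGTGGT in 16.9%. The Cd33 promoter has GAGGAA at -226 and TGTGGT at -88, positions being those of the leftmost base counted from the start as 0. Siglecf has the reverse complement of GAGGAA at -65 and TGTGGT at 41. Siglecg has 2 matches to GAGGAA, at -241 and -212, and Siglece has 3, at -87, -36 and -11, all on the reverse strand, and neither holds TGTGGT. RefSeq gives a further start of Siglecg downstream, whose window (chr7:43408030-43408329) holds none of the motifs searched. TTGCNNAA, a core of C/EBP factors found in 10.8% of the promoters, and CAGCTG, bound by E proteins and found in 16.1%, were absent from these 4 windows. None of the printed matches overlap. A match describes letters in a window and is not a measured site.

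The promoters of Cd33 and Siglecf share a stretch that includes the TGTGGT of both. In an ungapped comparison of the 15 pairs among 6 Siglec promoters, it scored highest (1 per identical base and -2 per mismatch), at 22 against at most 10 for any other pair, with 24 of 25 bases identical (96.0%). Only the highest-scoring stretch of each pair was kept, so further stretches shared by a pair are not shown. Capitals mark identical bases here.
Cd33, -105 to -81: GTGGAAAGTTCCtTCTCTGTGGTCA
Siglecf, 24 to 48: GTGGAAAGTTCCcTCTCTGTGGTCA
The stretch lies before the start of Cd33 and after that of Siglecf, and, as shown next, the RNA of the 2 genes did not follow the same pattern over the 4 libraries.

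**Figure D1:**
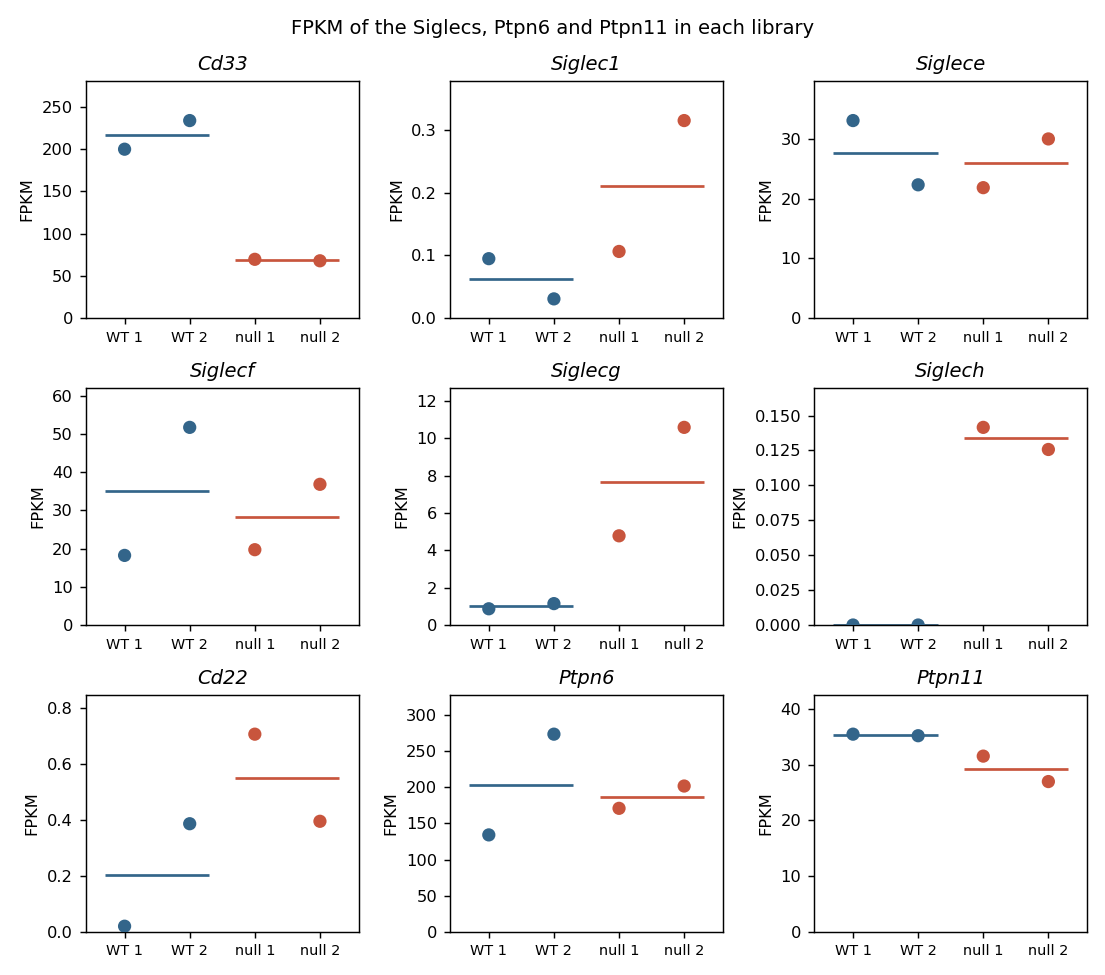
FPKM of the 9 members in each of the 4 libraries (linear axes that start at 0). Points are libraries and bars are group means (n = 2). Cd33 separated by group, with means of 217 in WT against 68.8 in CD274-null, and Siglecg lay the other way round, while Siglece, Siglecf and Ptpn6 overlapped between the groups.

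Cd33 (NCBI gene 12489) had the highest Siglec RNA level in every library, and it was lower in the CD274-null LICs. Its FPKM was 199.9 in replicate 1 and 233.8 in replicate 2 of WT, against 69.7 in replicate 1 and 67.9 in replicate 2 of CD274-null. Both CD274-null libraries lay far below both WT libraries, and the groups did not overlap. These values rested on 5946, 6120, 1584 and 1739 recovered reads, so counting error was small beside the difference. The mean was 217 ± 24.0 (SD, n = 2) in WT and 68.8 ± 1.23 (SD, n = 2) in CD274-null, 31.7% of the WT level. The log2 fold change was -1.64 with a standard error of 0.21, past the candidate thresholds. With each library left out in turn it lay between -1.76 and -1.53, and it was a candidate under 16 of 16 alternative settings. Averaged over the 4 libraries, the level of Cd33 exceeded that of 96.1% of the tested genes. In bulk RNA, fewer cells of a type and less RNA per cell cannot be told apart.

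Siglecg (NCBI gene 243958) encodes Siglec-G, an inhibitory receptor best known from B cells, in which it dampens signalling of the antigen receptor. It moved opposite to Cd33. Its FPKM was 0.870 and 1.15 in WT against 4.78 and 10.6 in CD274-null, from 25, 29, 105 and 262 recovered reads. Both CD274-null libraries were above both WT libraries, with replicate 2 the higher of the pair. The mean was 1.01 ± 0.196 (SD, n = 2) in WT and 7.69 ± 4.11 (SD, n = 2) in CD274-null, a 7.62-fold ratio. The log2 fold change was 2.35 (standard error 0.45), past the candidate thresholds. Siglecg stayed a low gene, its mean level exceeding that of 27.5% of the tested genes. The call was lost without CD274-null replicate 2, where the log2 fold change was 1.81, and with no filter on low values or without moderation of the variance. Of the 50-base windows of Siglecg transcripts, 4.64% also occur in another gene, mostly in Gm29791 on the same strand, so part of its reads could have been assigned to either gene.

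Some markers of other cells were higher in the same libraries as Siglecg. The library order of Siglecg, from CD274-null replicate 2 down to CD274-null replicate 1, WT replicate 2 and WT replicate 1, was also that of 1 of the 2 tested B cell markers (Ighm) and of 3 of the 6 tested markers of plasmacytoid dendritic cells (Bst2, Irf8 and Tcf4), and of 7.38% of all tested genes. For the same 4 markers both CD274-null values lay above both WT values, as they did for 25.6% of all tested genes. The other markers of these lists were overlapping or too low to be tested. Ighm, the heavy chain of IgM, had an FPKM of 9.04, 14.1, 49.1 and 162, with WT first, a log2 fold change of 2.93. Tcf4, a transcription factor of plasmacytoid dendritic cells, had 1.74, 2.72, 7.40 and 23.6, a log2 fold change of 2.36. Both genes were candidates (unadjusted limma p of 0.00163 and 0.00481). The summed FPKM of 14 B cell markers was 22.5 and 51.2 in WT against 86.8 and 204 in CD274-null, and Ighm carried most of this difference. Without Ighm the other 13 summed to 13.5 and 37.1 in WT against 37.8 and 41.9 in CD274-null. Cd79b made up most of these sums, with 12.8 and 36.2 in WT against 35.6 and 37.4 in CD274-null, and overlapped between the groups. Only Ighm and Cd79b of these 14 passed the filter. Ms4a1, Pax5, Ebf1, Vpreb3 and Cr2 were among those listed at 0 in both WT libraries. Of these, Ms4a1, Ebf1 and Vpreb3 were also at 0 in CD274-null replicate 1. Pax5, a transcription factor that defines B cells, reached 0.0936 and 0.416 in CD274-null, from 1 and 5 recovered reads. Cr2 rested on 3 and 1 there. The 12 plasmacytoid dendritic cell markers summed to 97.3 and 189 in WT against 206 and 300.3 in CD274-null, with 6 tested and 1 a candidate, and Cd209d was at 0 throughout. Pld4, the highest of them, overlapped between the groups, with 32.8 and 94.8 in WT against 92.9 and 120.3 in CD274-null. Without Pld4 the other 11 summed to 64.5 and 93.9 in WT against 113 and 180.0 in CD274-null. The part of these cells in the Siglecg values was not tested.

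Siglecf (NCBI gene 233186) encodes Siglec-F, a receptor of eosinophils and alveolar macrophages. Its FPKM was 18.2 and 51.7 in WT against 19.7 and 36.8 in CD274-null, from 426 to 1287 recovered reads. Replicate 2 of each group was high and replicate 1 low, and the groups overlapped. The mean was 34.9 ± 23.7 (SD, n = 2) in WT and 28.2 ± 12.1 (SD, n = 2) in CD274-null, a log2 fold change of -0.19 with a standard error of 0.53. With 1 library left out, this value ran from -0.93 to 0.55. Prg2, which encodes the major basic protein of eosinophil granules, was high in the same libraries, with 19.6 and 395 in WT against 41.0 and 236 in CD274-null. Prg3, a related granule protein, had 4.01 and 87.1 in WT against 23.4 and 139 in CD274-null. The 8 eosinophil markers summed to 25.5 and 487 in WT against 68.6 and 379 in CD274-null. Of these 8, 4 were tested and 0 were candidates in limma, and 0 had an unadjusted p under 0.05. Prg2 and Prg3 made up most of this sum, and the other 6 summed to 1.87 and 5.18 in WT against 4.18 and 4.39 in CD274-null. Epx, the eosinophil peroxidase, had 0.771 and 0.730 in WT against 0.924 and 2.76 in CD274-null. Ear2, a granule ribonuclease, had 0.966 and 3.15 in WT against 2.84 and 1.54 in CD274-null. Neither kept the library order of Siglecf, nor did Prg3, which was highest in CD274-null replicate 2. The eosinophil receptors Il5ra and Ccr3 were at most 0.106. The part of eosinophils in the Siglecf values was not tested.

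Siglece (NCBI gene 83382) encodes Siglec-E, an inhibitory receptor of neutrophils and macrophages. Its FPKM was 33.1 and 22.3 in WT against 21.8 and 30.0 in CD274-null, from 357 to 707 recovered reads. WT replicate 1 was the highest and CD274-null replicate 1 the lowest, and the groups overlapped. The means were 27.7 ± 7.60 (SD, n = 2) and 25.9 ± 5.76 (SD, n = 2), and the log2 fold change was -0.08 with a standard error of 0.29. It changed sign when libraries were left out, from -0.36 to 0.19. The 2 libraries with the most Siglece, WT replicate 1 and CD274-null replicate 2, were also the 2 with the largest summed neutrophil markers, 43488 and 31421. S100a8 and S100a9 made up most of this sum, and these 2 libraries were the highest for 6 of the 11 markers and not for the other 5. The part of neutrophils in the Siglece values was not tested. Siglece overlaps Ceacam18 and Ctu1 on the chromosome, and its transcripts share 0 of their 1848 windows of 50 bases with other genes.

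**Figure D2:**
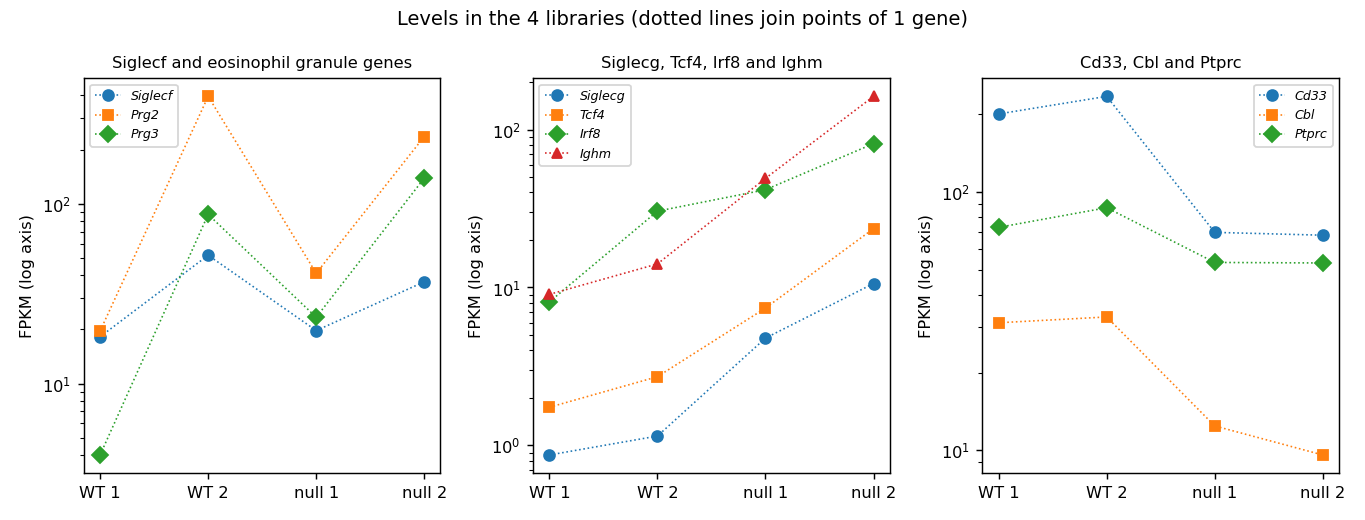
FPKM on log axes in the 4 libraries for Siglecf with 2 eosinophil granule genes, Siglecg with Tcf4, Irf8 and Ighm, and Cd33 with Cbl and Ptprc. Points are single libraries and dotted lines only join points of 1 gene. Siglecf, Prg2 and Prg3 are high in replicate 2 of both groups, and Cd33, Cbl and Ptprc are lower in both CD274-null libraries. Siglecg, Tcf4, Irf8 and Ighm are highest in CD274-null replicate 2, and Irf8 was not a candidate. The tested B cell and plasmacytoid dendritic cell markers not shown, except Bst2, overlapped between the groups.

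The remaining Siglecs were near 0 and did not pass the filter. Siglec1 (NCBI gene 20612, chr2:131067801-131086778), which encodes the macrophage receptor sialoadhesin, had an FPKM of 0.0947 and 0.0308 in WT against 0.106 and 0.314 in CD274-null, from 7, 2, 6 and 20 reads. Cd22 (NCBI gene 12483, chr7:30865404-30880342), an inhibitory co-receptor of B cells, had 0.0200 and 0.387 in WT against 0.708 and 0.396 in CD274-null, from 1, 17, 27 and 17 reads. For both genes the CD274-null values lay above the WT values, yet the nearest libraries of the groups rested on like numbers of reads, 7 and 6 for Siglec1 and 17 in each for Cd22. Siglech (NCBI gene 233274, chr7:55768154-55779448), a DAP12-coupled receptor of plasmacytoid dendritic cells, was listed at 0 in both WT libraries and had 0.142 and 0.126 in CD274-null, in lowest terms 1 read each. At this depth no level can be set for these genes, and no fold is given. Cd22 shares 7.84% of its 50-base windows with other genes, mostly Gm29439 on the opposite strand, which counting without strand cannot separate.

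The macrophage markers that accompany Siglec1 in bone marrow macrophages were also examined. The 14 markers summed to 197 and 201 in WT against 132 and 157 in CD274-null, and Vcam1 carried this difference. Without Vcam1 the other 13 summed to 80.2 and 109 in WT against 78.3 and 96.7 in CD274-null, and the groups overlapped. Of the 14, 8 were tested and Vcam1 was a candidate, with a log2 fold change of -0.87 (unadjusted limma p of 0.00704). Timd4 was at 0 in all 4 libraries, and Cd5l and Spic were at most 0.389.

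Within a library, the makeup of Siglec RNA can be read as shares of the summed FPKM of the 7 Siglecs, which was 252 and 309 in WT against 117 and 146 in CD274-null. Cd33 held 79.3% and 75.6% of it in WT against 59.6% and 46.5% in CD274-null. Siglecg held 0.345% and 0.371% in WT against 4.09% and 7.25% in CD274-null. The share of Cd33 was lower and that of Siglecg higher in both CD274-null libraries than in either WT library. Siglecf held 7.22% and 16.7% in WT against 16.8% and 25.2% in CD274-null, and Siglece 13.1% and 7.21% in WT against 18.7% and 20.5% in CD274-null. Both shares were larger in the CD274-null libraries, by a small margin for Siglecf, although the FPKM of neither gene was. Cd33 stayed the most abundant Siglec in all 4 libraries.

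Ordered by mean level in WT, Cd33 at 217 and Ptpn6 at 204 came first and did not differ beyond their spread. Ptpn11 at 35.3, Siglecf at 34.9 and Siglece at 27.7 followed, each within the spread of the next. Siglecg at 1.01 came next. Cd22, Siglec1 and Siglech lay below it and are not ranked, since no level can be set for them. In CD274-null, Ptpn6 at 186 stood clear above Cd33 at 68.8, which in turn was clear of Ptpn11 at 29.3. Ptpn11, Siglecf at 28.2 and Siglece at 25.9 overlapped there too, and Siglecg at 7.69 lay below all 3.

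Ptpn6 (NCBI gene 15170, chr6:124720707-124738709) encodes SHP-1, the phosphatase of hematopoietic cells through which most ITIM receptors inhibit. Its FPKM was 134 and 273.4 in WT against 170.8 and 201.6 in CD274-null, from 3640 to 6708 recovered reads. The WT libraries enclosed both CD274-null libraries, so the groups overlapped. The mean was 204 ± 98.5 (SD, n = 2) in WT and 186 ± 21.8 (SD, n = 2) in CD274-null, a log2 fold change of -0.04 with a standard error of 0.36. With 1 library left out it ran from -0.56 to 0.47. The library order of Ptpn6, highest in WT replicate 2 and lowest in WT replicate 1, was that of Siglecf. Ptpn6 shares 5.01% of its 50-base windows with Gm20531 on the opposite strand.

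Ptpn11 (NCBI gene 19247, chr5:121130533-121191397) encodes SHP-2, which is expressed in most cells and promotes Ras signalling besides its role at ITIMs. Its FPKM was 35.5 and 35.2 in WT against 31.5 and 27.0 in CD274-null, from 1507 to 2303 recovered reads. The CD274-null libraries were both lower, by a small margin. The mean was 35.3 ± 0.197 (SD, n = 2) in WT and 29.3 ± 3.23 (SD, n = 2) in CD274-null, and the log2 fold change of -0.27 (standard error 0.21) was not past the candidate thresholds. The ratio of Ptpn6 to Ptpn11 was 3.78 and 7.77 in WT against 5.42 and 7.48 in CD274-null, with the groups overlapping.

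Of the 6 members tested, 2 were candidates, Cd33 lower and Siglecg higher, where 3.63% of all tested genes were. The CD274-null and WT libraries did not overlap for Cd33, Siglecg and Ptpn11, 3 of 6, where 47.3% of all tested genes did not overlap. The fold change was above 1.5 for Cd33 and Siglecg only, where 26.4% of the tested genes passed this size. The median log2 fold change of the 6 was -0.14, beside 0.01 over all tested genes. Since the contrast helped to choose the members, nothing is read from these counts.

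**Figure D3:**
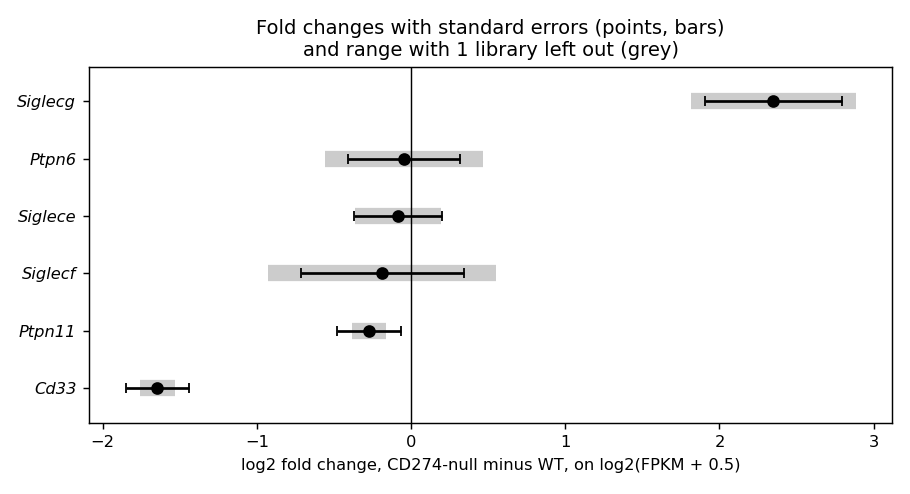
Log2 fold changes (CD274-null minus WT, on log2(FPKM + 0.5)) of the 6 tested members. Points are the limma estimates from 2 libraries per group, black bars the standard error and grey bands the range when each library is left out in turn. Cd33 (-1.64) and Siglecg (2.35) keep their sign over the whole band, as does Ptpn11, while Siglece, Siglecf and Ptpn6 cross 0.

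Genes around the Siglecs were described from 10 lists with 86 genes, covering adaptors, kinases, other effectors and receptors, and the enzymes and carriers of sialic acid. Of these, 62 were tested and 1 was a candidate, Cbl, which was lower (1.61% of the 62, beside 3.63% of all tested genes). In limma 0 had an adjusted p under 0.05, and 6 had an unadjusted p under 0.05, namely Cbl, Lyn, Gab2, Sos2 and Ptprc with lower values in CD274-null and Cd72 with higher values. The log2 fold change was above 0 for 31 genes and below 0 for 31, with a median of 0.02. The candidate was lost without moderation of the variance and without CD274-null replicate 2, and limma's voom on recovered reads gave 2 candidates. Without WT replicate 2 there were 8 in the lists (634 over all genes), and with the replicate number as a block 5 (526 over all genes), so the low share in the lists did not hold under these settings.

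Downstream of the receptors, Cbl (chr9:44142976-44234259) encodes a ubiquitin ligase that binds phosphorylated receptors through an SH2-like domain. Its FPKM was 31.2 and 32.8 in WT against 12.4 and 9.60 in CD274-null, so the groups did not overlap. The mean was 32.0 ± 1.17 (SD, n = 2) in WT and 11.0 ± 2.004 (SD, n = 2) in CD274-null, and the log2 fold change was -1.51, with 0.24 as its standard error. In limma its unadjusted p was 6.24e-04 and its adjusted p was 0.165. Among the 5 SH2 effectors other than the SHPs, all tested, it was the only candidate, and the highest in level was Inpp5d, the lipid phosphatase SHIP-1, with 39.8 and 72.1 in WT against 55.8 and 61.2 in CD274-null. The 8 scaffolds and partners of SHP-2 were all tested and 0 were candidates, while 2 had an unadjusted p under 0.05. Gab2, a docking protein of SHP-2, had a log2 fold change of -1.11 and Sos2, an exchange factor of Ras, of -0.93, and limma gave them adjusted p-values of 0.284 and 0.3005. Grb2, the adaptor that joins receptors to Sos proteins, had 70.7 and 95.9 in WT against 82.0 and 77.6 in CD274-null.

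Among kinases and adaptors, 5 of 9 genes for Src family kinases and Csk were tested, with 0 candidates and 1 unadjusted limma p under 0.05. Lyn, the kinase that phosphorylates ITIMs in myeloid and B cells, had a mean FPKM of 66.3 ± 3.17 (SD, n = 2) in WT and of 44.6 ± 1.89 (SD, n = 2) in CD274-null. Its log2 fold change was -0.57 (limma, adjusted p = 0.327). Csk, the kinase that holds Src family kinases inactive, had 69.5 and 78.6 in WT against 79.2 and 73.9 in CD274-null. Of 3 transmembrane adaptors and the kinase Syk, 0 of 4 genes were candidates and 0 were at an unadjusted limma p under 0.05. Tyrobp, which encodes DAP12, had 864 and 1295 in WT against 898 and 1176 in CD274-null, and Fcer1g, the common gamma chain of Fc receptors, had 311 and 414 in WT against 375 and 467 in CD274-null.

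ITIM receptors outside the Siglec family, which recruit SHP-1 or SHP-2, were expressed as well. Of 19 listed, 16 were tested, 0 were candidates and 1, Cd72, had an unadjusted limma p under 0.05. The median log2 fold change was 0.13, with 10 above 0 and 6 below. Clec12a, a lectin of myeloid cells that, like CD33, is present on AML blasts, had the highest level, 317 and 402 in WT against 434 and 543 in CD274-null. All 4 values were above that of Cd33 in the same library, and both CD274-null values were the higher. Fcgr2b, the inhibitory Fc receptor, had 82.4 and 114 in WT against 80.7 and 98.5 in CD274-null. Cd72, an inhibitory receptor of B cells, was low, with a mean of 0.827 ± 0.0313 (SD, n = 2) in WT and 2.15 ± 0.270 (SD, n = 2) in CD274-null and differed by 0.99 on the log2 scale (limma, adjusted p = 0.343). Pirb, Lilrb4a and Cd300lf, chosen after their values were seen, had 105, 145 and 116 in WT replicate 1 and at most 34.9 in any other library.

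On the ligand side, 0 genes were candidates in any list. Of 7 genes for synthesis and transport of sialic acid, 5 were tested and 0 had an unadjusted limma p under 0.05. Nans, which makes the phosphate of sialic acid, had 53.8 and 54.9 in WT against 69.1 and 64.0 in CD274-null, and Cmas, which activates sialic acid for transfer, had 49.1 and 40.5 in WT against 35.7 and 43.1 in CD274-null. Cmah, the enzyme that turns the acetyl into the glycolyl form bound by some mouse Siglecs, was at most 0.204. Of 20 sialyltransferases, 8 were tested, 0 had an unadjusted limma p under 0.05 and 6 were at 0 in every library. St3gal4, which adds sialic acid in an alpha linkage to galactose, led with 32.2 and 18.6 in WT against 30.5 and 24.5 in CD274-null, and St6galnac6, which sialylates glycolipids, had 7.59 and 18.8 in WT against 14.4 and 10.8 in CD274-null. St6gal1, which builds the ligand of CD22, was between 0.0536 and 0.528.

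Of 6 sialidases and sialic acid modifying genes, 4 were tested and 0 had an unadjusted limma p under 0.05. Neu1, the lysosomal sialidase, had 44.8 and 49.2 in WT against 59.9 and 78.9 in CD274-null, and Casd1, which O-acetylates sialic acid, had 14.4 and 15.8 in WT and 21.9 in both CD274-null libraries. For both genes the CD274-null values lay above the WT values, and the groups likewise did not overlap, in either direction, for 47.3% of the tested genes. All 6 sialylated carriers were tested and 1 had an unadjusted limma p under 0.05. This was Ptprc, the phosphatase CD45 and a ligand of CD22, with 79.8 ± 9.84 (SD, n = 2) in WT and 53.2 ± 0.180 (SD, n = 2) in CD274-null and a difference of -0.58 on the log2 scale (limma, adjusted p = 0.333). Cd24a, a sialylated ligand of Siglec-G, had 147 and 84.3 in WT against 113 and 183 in CD274-null, and Cd52 had 219.8 and 276 in WT against 236 and 421 in CD274-null, so both overlapped. The other Siglecs of the mouse were Mag, the myelin receptor, with 16.5 and 20.7 in WT and 17.4 in both CD274-null libraries, and Siglec15, which was at 0 throughout.

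**Figure D4:**
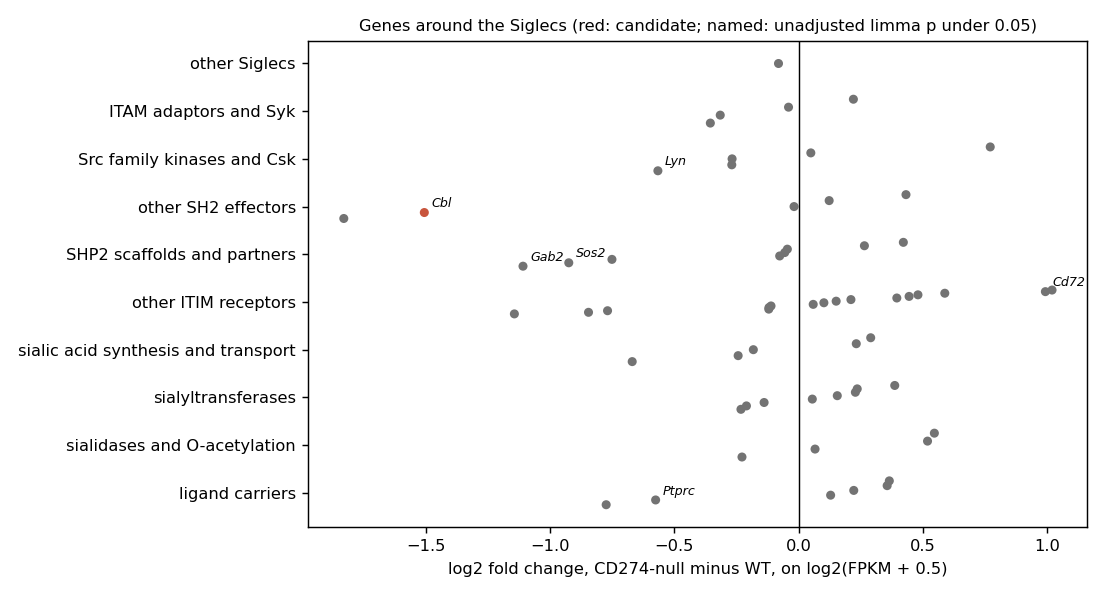
Log2 fold changes (CD274-null minus WT, on log2(FPKM + 0.5)) of the 62 tested genes, 1 row per list. Each point is 1 gene, the candidate Cbl is red, and genes with an unadjusted limma p under 0.05 are named. The points spread to both sides of 0, 31 above and 31 below.

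The genes next to Cd33 on chromosome 7 were compared with it. Of the 5 annotated genes on each side, 8 had a value and 6 were tested, with 0 candidates in limma and 2 at an unadjusted p under 0.05. These were Ceacam18, with a log2 fold change of -1.11, and Zfp658, the nearest on the upper side, with 1.02. The others were Vsig10l at 0.37, Zfp819 at 0.28, Zfp719 at -0.21 and Siglece at -0.08. All but Siglece were low, with at most 3.85 FPKM in any library. As a ratio of mean FPKM, Ceacam18 stood in CD274-null at 32.4% of its WT level (0.638 against 1.97), like the 31.7% of Cd33, so the smaller log2 value of Ceacam18 comes with the 0.5 added to a low FPKM. On the same ratio Zfp658 stood at 265% of WT and the other tested neighbours between 83.8% and 145%. Siglecg, of the same cluster but not among the 5 nearest genes on its side, is not in these counts. Ceacam18 overlaps the span of Siglece on the chromosome, while the Siglece transcripts share 0 of their 1848 windows of 50 bases with other genes.

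**Figure D5:**
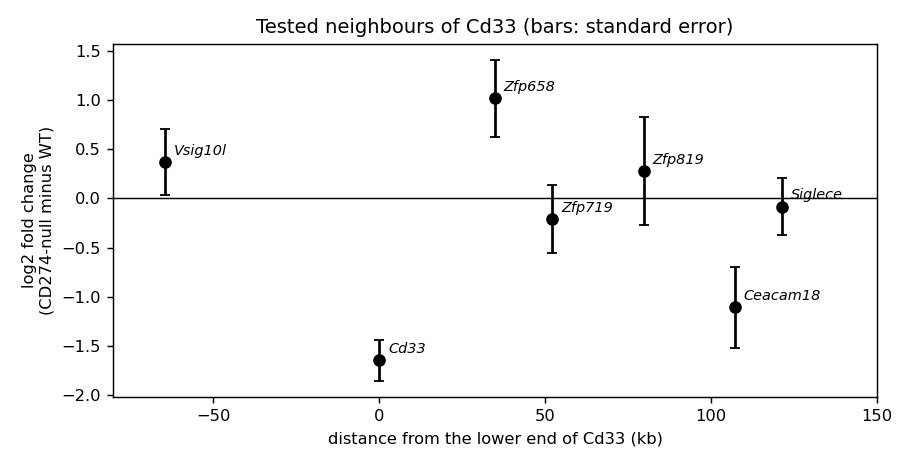
Log2 fold change (CD274-null minus WT) of Cd33 and its 6 tested neighbours against their distance in kb from the lower end of Cd33. Points are limma estimates from 2 libraries per group and bars are standard errors. Cd33 lies at -1.64 and the neighbours between -1.11 and 1.02, where the 0.5 added to low values draws Ceacam18 towards 0 (it stood at 32.4% of its WT mean FPKM, Cd33 at 31.7%).

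Genes whose pattern over the 4 libraries was most like that of Cd33 were found by the root mean square difference of log2(FPKM + 0.5), each gene centred on its own mean, among tested genes whose FPKM averaged 5 or more. Ccr1, a chemokine receptor of myeloid cells, was the closest at a difference of 0.0708, with 23.7 and 27.7 FPKM in WT against 8.99 and 7.77 in CD274-null (log2 fold change -1.56). Btnl9, a butyrophilin-like protein, followed at 0.0856, with 10.7 and 11.8 in WT against 3.17 and 2.73 in CD274-null (log2 fold change -1.77). An unnamed gene (NCBI gene 100503845) at 0.124, the ETS factor gene Elk4 at 0.139 and Cbl at 0.143 completed the 5, with log2 fold changes of -1.65, -1.72 and -1.51. All 5 were candidates, and all had their highest level in WT replicate 2, as Cd33 did. Likeness over 4 libraries of 2 groups is mostly likeness of the group difference and was given no test.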

How the data were processed

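RNA of LICs, sorted cells by the labels but tissue in the methods on RNA-sequencing, was measured in 4 libraries, 2 per genotype, grouped by their labels. Per the study's methods, the authors made TruSeq v2 libraries, sequenced them on a HiSeq2500, aligned reads averaging 50 bp to GRCm38 with TopHat2 2.0.12 (the processing notes also name CASAVA 1.8.2) and deposited FPKM per gene. The program, gene lengths and strand setting behind FPKM are not given in the sources used here. All 4 value columns were assigned.

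NCBI gene numbers were named from RefSeq (GRCm38.p6), where 25275 of 27179 had a symbol. Reads were recovered as the smallest whole numbers in the ratios of the depth-scaled FPKM of a gene (tolerance 1e-08), for 17083 genes, 100% of those above 0 in 2 or more libraries. They are lower bounds where the 4 libraries share a factor. The groups were compared on log2(FPKM + 0.5) by a linear model in limma 3.58.1 (R 4.3.3), its variances moderated with a trend and p-values adjusted after Benjamini-Hochberg. The fit was run on reads simulated with the same dispersion for every gene, and nothing is read from that run here. Named genes were the members, list candidates, the 2 highest genes of each list, Cd274, Itgam, Kit, the 5 genes most like Cd33 and its 5 neighbours on each side. Of these, 1 list gene is left unreported. Other genes named for an unadjusted p or a level were chosen after their values were seen. Shared 50-base windows were counted in GENCODE transcripts, and promoters came from RefSeq (8 of 9 members matched, with none for Siglec1), in Python 3.11.15. Members, lists and tests were chosen with earlier results of these data known. Alternatives were other pseudocounts, filters, scalings and variance models, the replicate block and leaving out each library. Those added after seeing the data were voom on recovered reads and a loess correction for GC content (span 0.3), also with the block.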

Additional observations from a re-analysis of the deposited data

How the results depend on the processing

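The log2 fold change of Cd33 kept its direction and its call under all 16 alternatives, from -1.76 to -1.53 with each library left out and from -1.67 to -1.62 otherwise. Siglecg kept its direction in the 15 alternatives that tested it and its call in 12. The call was lost at 2.35 with no filter and at 2.35 without moderation, and without CD274-null replicate 2, leaving libraries out giving 1.81 to 2.88. The number of members called was 2, and 1 with no filter, 1 at a mean FPKM of at least 5, where Siglecg was not tested, 1 without moderation and 1 to 2 with a library left out. The number of candidate genes, 480, was 170 without moderation and 147 to 634 with a library left out, lowest without CD274-null replicate 2 and 235 without CD274-null replicate 1. It was 463 after quantile normalization (253 higher, 210 lower), 447 with equal medians (247 and 200) and 326 after GC correction (163 and 163), against 316 and 164 in the main setting. Genes with an adjusted p under 0.05, 10 in the main setting, numbered 0 without moderation, with voom and after GC correction, and 21 with the replicate block. Candidates in the pathway lists, 1 in the main setting, numbered 2 at a mean FPKM of at least 5, 2 without the variance trend, 0 without moderation, 2 with voom, 2 after GC correction and 0 to 8 with a library left out, 8 without WT replicate 2. With the replicate number as a block, the candidates were 526 over all genes, 5 in the lists and 4 there after GC correction as well. Deviations of same-numbered libraries did not correlate over the tested genes (r = -0.02). This shows no pairing by number over the genes as a whole, and a pairing in some genes was not tested. The block changed no call of a member. The sign of Siglece, Siglecf and Ptpn6 changed with the library left out. Fold changes followed GC content across 11435 genes (Spearman's rho 0.26, genes not being independent replicates). The cause of these changes was not tested, apart from fewer genes or libraries in a fit. Depth limits Siglec1, Siglech and Cd22, with 0 to 27 reads per library.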
